A study of Mus musculus with 60 samples.

Results

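Transcripts of 40 genes of the S, G2, and M phases of the cell cycle were followed in 48 libraries of mouse cerebral cortex, as TPM (each gene's share of a library's transcripts after correction for gene length, scaled to a common total). The 40 genes were listed by name and function out of 39756 genes in the table, though with earlier results of these data known. All 40 passed the filter for testing (a mean of at least 1 TPM, met by 14250 genes). By role they comprised 9 genes of replication licensing and origin firing, 3 of the replication fork and nucleotide supply, 2 transcription factors, 6 cyclins or Cdk1, 7 mitotic kinases, checkpoint or chromosomal passenger genes, 2 partners of the anaphase-promoting complex, 4 genes of chromosome structure and kinetochore, and 7 of the spindle. The libraries asked how paxillin, an adaptor protein of focal adhesions that was lowered by siRNA, and BDNF, a neurotrophin, act on neurons as they mature. All were labelled wild type. Of the libraries, 2 were labelled E15 and carried no siRNA or BDNF, and 46 came from primary cortical cultures harvested at 3, 5, or 10 days in vitro (DIV). The growth protocol gives E18 embryos, and the labels call the E15 libraries primary neurons without saying whether they were tissue, freshly dissociated cells, or cultures. The paper's methods give E18 for rat embryos. Elsewhere it describes the mouse cultures as E15 and lists E15 as the starting stage of the series. Cultures received scrambled (SC) or paxillin (PXN) siRNA at 2 DIV, and some received 20 ng/ml BDNF at that time. The numbers of SC libraries at DIV3, DIV5, and DIV10 were 3, 4, and 3 without BDNF and 3, 4, and 3 with BDNF. For PXN siRNA they were 5, 6, and 4 without BDNF and 4, 5, and 2 with BDNF. No other agent, and no antimitotic drug, is named in the protocols. The replicate number in the labels is called the culture here, and nothing says that cultures came from separate litters, so p-values measure the spread between these libraries. The library number series used below is a grouping made here from the library numbers that end the column names. Some of these numbers recur between series, and the series is not a batch named in the labels. siRNA reaches a population of cells in a dish, so each library averages over cells that took it up and cells that did not.

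Cells copy their DNA once per cycle. In G1, Cdc6 loads the Mcm2-7 helicase onto origins, and in S phase Cdc45 and the GINS complex activate it while Pcna clamps polymerases to DNA and Rrm2 and Tyms supply nucleotides. E2F factors such as E2f1 switch on many of these genes, and Foxm1 with cyclins A and B and Cdk1 carries cells through G2 into mitosis, where kinases, kinetochore proteins, and spindle motors separate the chromosomes. Neurons are postmitotic, so in cortical cultures such transcripts are usually read as signs of neural progenitors, glial precursors, and other dividing cells. In these bulk libraries, fewer dividing cells and less RNA per dividing cell cannot be told apart.

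The labelled cell type was present but not alone. The summed TPM of 8 neuronal markers ran from 559 to 4713, that of 6 oligodendrocyte precursor markers from 279 to 10421, and that of 8 astrocyte markers from 248 to 8094. The 6 endothelial and 5 red blood cell markers summed to 421 and 464 and 836 and 1310.4 TPM in the E15 libraries, against at most 12.7 and 9.26 TPM in any culture. Pxn itself stood at 12.4 to 19.9 TPM in SC and 8.43 to 9.83 TPM in PXN libraries at DIV5, which did not overlap. At DIV3 the ranges were 9.16 to 11.7 and 7.79 to 11.4 TPM, and at DIV10 8.99 to 19.9 and 11.5 to 18.8 TPM. Directions under PXN siRNA on those days, and with BDNF, therefore refer to libraries labelled PXN. At DIV10, 4 of 12 libraries (SC culture 3, SC with BDNF culture 3, and PXN cultures 1 and 2) stood apart, with Mki67 at 1.28 to 9.51 TPM against 59.5 to 111 TPM in the other 8, and results at DIV10 are given with and without them.

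Promoter sequences were taken from RefSeq (GRCm38.p6), and 32 of the 40 genes matched an entry of 250 bases before to 50 bases after the start of the gene. They were searched on both strands for the cell cycle genes homology region (CHR, TTTGAA or TTCGAA), through which the DREAM and MuvB complexes act on G2 and M phase genes, and for the E2F site (TTTGGCGC, TTTCGCGC, TTTCCCGC, or TTTGCCGC), whose forms can overlap one another on opposite strands. Of the G2 and M phase genes, 16 of 20 held a CHR, as did 3 of 12 of the replication and G1/S genes and 21.7% of all 27025 genes in the table. For the E2F site the order was turned around, with 1 of 20 of the G2 and M phase genes, 5 of 12 of the replication and G1/S genes, and 2.6% of all genes. CCAAT, the box bound by NF-Y, was held by 26 of 32 of the 40 genes with an entry and 41.1% of all genes. A match of letters describes the window and does not show that a factor binds there. The 200 bases before the start are printed for 6 genes whose levels the DIV10 libraries separate or fail to separate, 5′ to 3′ on the strand of the gene, with CHR and E2F matches in capitals.
Mki67 (chr7:135716380-135716579, minus strand): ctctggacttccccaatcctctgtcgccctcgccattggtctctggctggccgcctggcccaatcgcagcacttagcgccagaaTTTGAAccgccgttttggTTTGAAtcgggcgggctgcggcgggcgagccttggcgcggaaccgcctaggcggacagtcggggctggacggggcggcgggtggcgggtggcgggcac
Top2a (chr11:99024190-99024389, minus strand): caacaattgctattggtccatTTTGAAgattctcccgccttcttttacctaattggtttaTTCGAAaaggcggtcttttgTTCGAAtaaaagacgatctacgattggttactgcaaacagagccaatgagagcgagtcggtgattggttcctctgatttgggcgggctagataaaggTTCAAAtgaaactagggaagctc
Cdk1 (chr10:69352913-69353112, minus strand): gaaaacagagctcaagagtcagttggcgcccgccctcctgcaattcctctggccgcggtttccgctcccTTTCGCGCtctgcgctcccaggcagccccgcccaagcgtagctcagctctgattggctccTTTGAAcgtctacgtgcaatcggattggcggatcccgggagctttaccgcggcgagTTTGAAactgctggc
Mcm5 (chr8:75109309-75109508, plus strand): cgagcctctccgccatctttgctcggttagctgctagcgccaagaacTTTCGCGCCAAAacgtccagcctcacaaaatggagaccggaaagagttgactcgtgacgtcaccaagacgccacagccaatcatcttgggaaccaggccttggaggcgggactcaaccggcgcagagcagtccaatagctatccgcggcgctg
Mcm6 (chr1:128359706-128359905, minus strand): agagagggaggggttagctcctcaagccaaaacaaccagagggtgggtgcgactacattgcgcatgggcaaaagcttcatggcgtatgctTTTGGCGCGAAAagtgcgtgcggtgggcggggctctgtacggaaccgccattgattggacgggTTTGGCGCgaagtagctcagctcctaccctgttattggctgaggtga
Mcm2 (chr6:88898781-88898980, minus strand): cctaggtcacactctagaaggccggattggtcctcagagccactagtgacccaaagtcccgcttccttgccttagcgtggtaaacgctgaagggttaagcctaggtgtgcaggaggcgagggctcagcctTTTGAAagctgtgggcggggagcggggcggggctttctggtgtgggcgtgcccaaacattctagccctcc
Mki67 and Top2a, markers of proliferation, held 2 and 4 CHR matches. Cdk1, the mitotic kinase, held 2 CHR matches and 1 E2F site. Mcm5 and Mcm6, subunits of the same helicase, both held a pair of E2F sites overlapping on opposite strands (Mcm6 held 1 more), and their subunit Mcm2 held 1 CHR match.

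Summed over the 40 genes, the highest libraries were SC cultures 3 and 4 at DIV5 with BDNF, and the lowest were at DIV10. The sums were 1377 and 1828 TPM at E15. At DIV3 they were 1505, 1328, and 1286 TPM in SC cultures 1 to 3 and 1316 to 1733 TPM in 5 PXN cultures, and with BDNF 1189 to 1355 and 1091 to 1423 TPM. At DIV5 they were 1134, 997, 1863, and 1928 TPM in SC cultures 1 to 4, in which cultures 3 and 4 stood well above cultures 1 and 2, and 959 to 1873 TPM in 6 PXN cultures. With BDNF at DIV5 they were 1446, 1744, 2186, and 2600.1 TPM in SC cultures 1 to 4 and 1481, 1660.3, 1736, 1212, and 1122 TPM in PXN cultures 1, 2, 4, 10, and 11. At DIV10 they were 637, 377, and 865 TPM in SC cultures 1, 3, and 6 and 538, 518, 1059, and 855 TPM in PXN cultures 1, 2, 10, and 11. With BDNF at DIV10 they were 860.1, 859, and 472 TPM in SC cultures 1 to 3 and 1101 and 922 TPM in PXN cultures 10 and 11. No DIV10 library of SC siRNA, with or without BDNF, reached the lowest DIV5 library of its own group, whereas PXN culture 10 at DIV10 lay inside the DIV5 range of PXN siRNA. Such sums, and the ratios of sums given below, are weighted to genes of high TPM. In PXN culture 1 at DIV10, Mcm7 at 232 TPM and Pcna at 134 TPM made up most of the 538 TPM.

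**Figure D1:**
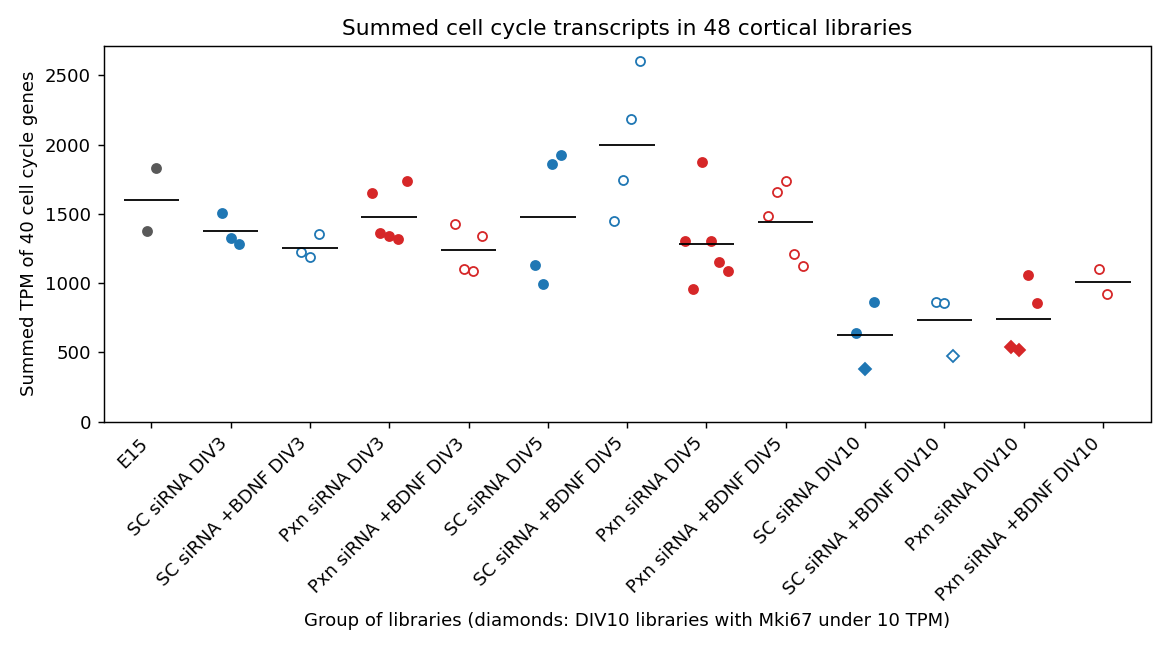
Summed TPM of the 40 cell cycle genes (vertical axis, from 0) in each of 48 libraries, by group (horizontal axis); filled circles are without BDNF, open symbols with BDNF, blue is SC siRNA, red is PXN siRNA, grey is E15, and lines are group means. The 4 diamonds, DIV10 libraries with Mki67 under 10 TPM, sit between 377 and 538 TPM, under all 44 others.

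The genes differed widely in level and in how far they moved. Pcna, the polymerase clamp, had the highest mean (193 TPM over 48 libraries) and varied 3.26-fold from its lowest to its highest library. Mki67, a coat protein of mitotic chromosomes, had a mean of 114 TPM and varied 179-fold. Cdc45, the helicase activator, had the lowest mean, 3.27 TPM. Across the 46 culture libraries, Pearson's r of each gene's log2(TPM + 1) with the mean of the other 39 had a median of 0.96, and of 0.90 over the 34 libraries of DIV3 and DIV5. The 4 lowest values over the 46 libraries were those of Mcm7 (0.14), Ccne1 (0.27), Mcm2 (0.66), and Gins2 (0.68), genes of G1/S and licensing. These are descriptions across libraries that share cultures and a common sum of TPM. The 10 genes outside all lists whose pattern was most like the mean of the 40, by Pearson's r over the same 46 libraries, were Dlgap5, Ckap2l, Cdca2, Pbk, Pclaf, Ska3, Cep55, Esco2, Spdl1, and Pimreg, with r from 0.979 to 0.992.

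**Figure D2:**
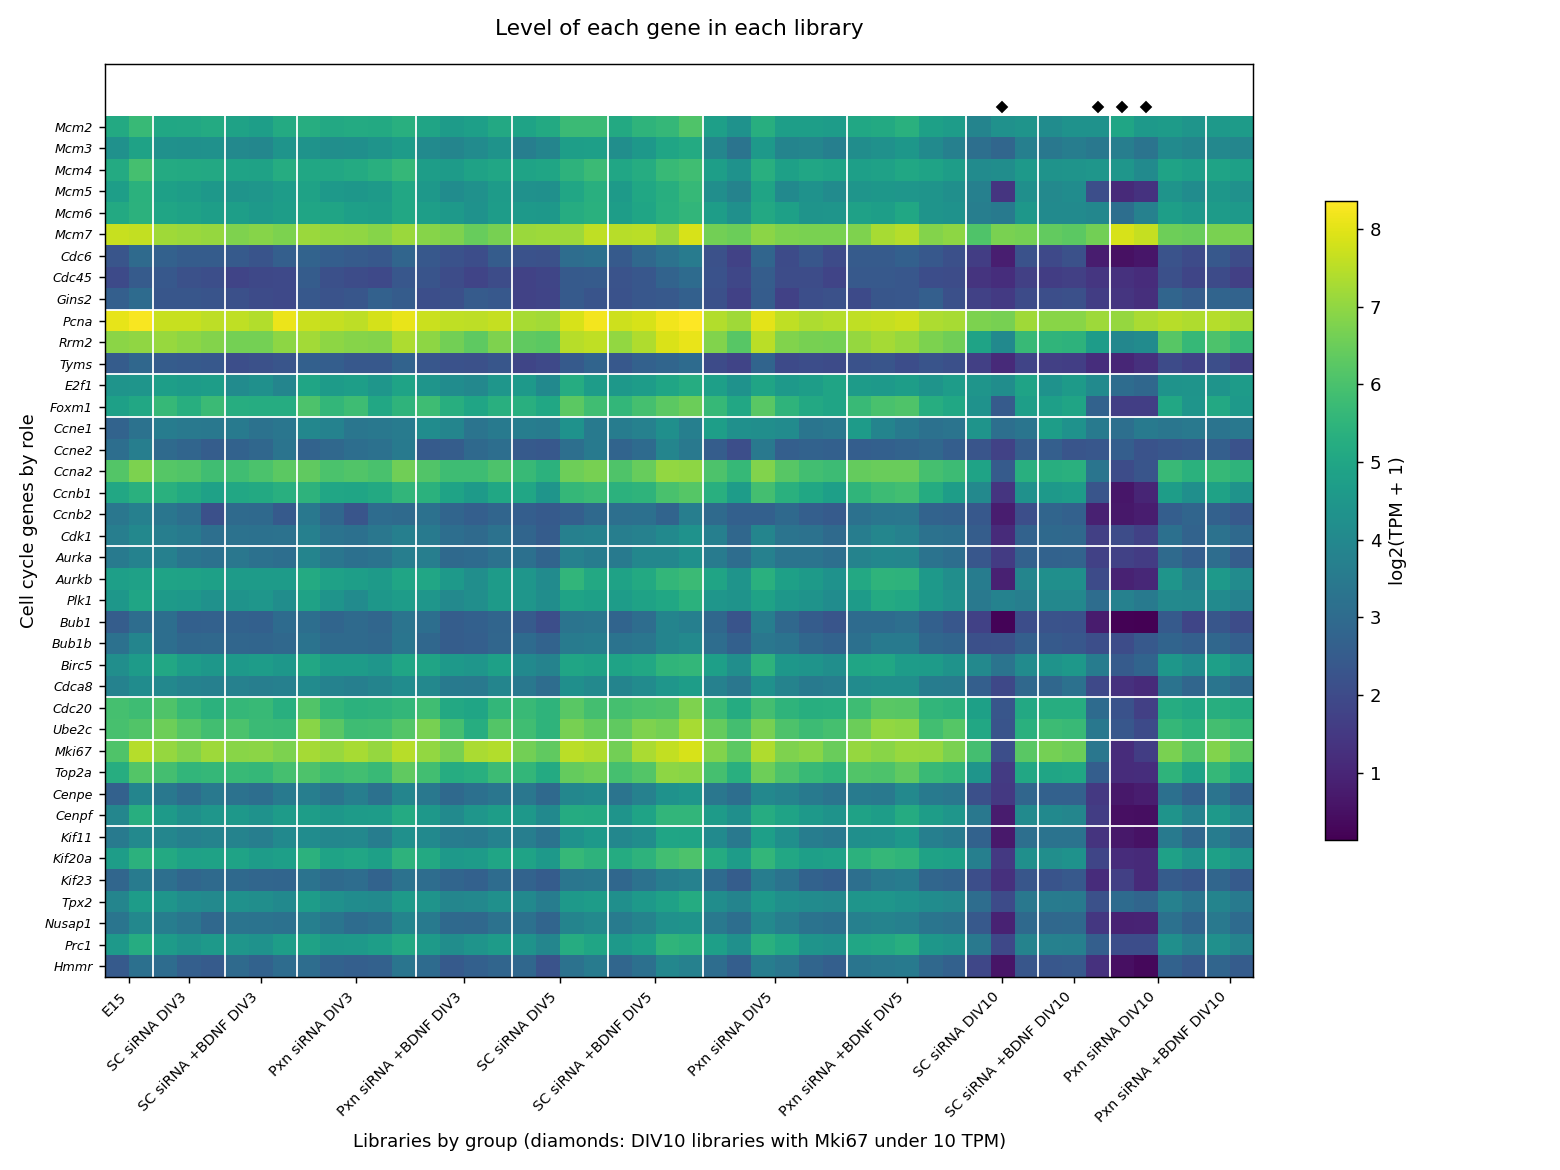
Level of each of the 40 genes (rows, grouped by role, white lines between roles) in each of the 48 libraries (columns, white lines between groups), as log2(TPM + 1) in color. Under the 4 diamonds at DIV10, the rows of Bub1, Cenpf, Hmmr, and Mcm5 are dark, while those of Mcm2 and Pcna stay near the color of the other DIV10 libraries. Mcm7 is brighter under the PXN diamonds, at 232 and 199.9 TPM against 67.9 to 103 TPM in the other 8.

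From E15 to SC siRNA at DIV3, none of the 40 genes passed the test (limma, adjusted p under 0.05; 3 at an unadjusted p under 0.05), beside 8.11% of the 14250 genes tested. The median difference of the 40 genes was -0.15 on the log2(TPM + 1) scale, beside -0.01 for all genes tested. Mki67 was at 67.6 and 175 TPM in the E15 libraries and 133, 109.7, and 140.4 TPM in SC cultures 1 to 3, so the pair of E15 libraries spanned the cultures. Pcna was at 263 and 309 TPM at E15 and 203, 205, and 187 TPM at DIV3, without overlap, a difference of -0.52 ± 0.23 (SE; limma, adjusted p = 0.152). Of 94 other cell cycle genes tested, 2 fell and none rose: Lin9, a subunit of MuvB, by 0.65 ± 0.21 (limma, adjusted p = 0.0458), and Gins4, of the GINS complex, by 0.49 ± 0.15 (limma, adjusted p = 0.0409). Cdkn1c, an inhibitor of cyclin-dependent kinases, was at 464 and 419.5 TPM and 138, 163, and 150.0 TPM, a difference of -1.55 ± 0.67 (limma, adjusted p = 0.144). With the library number series as a term 1 of the 40 genes passed, and 1 without the 4 DIV10 libraries, which enter through the shared estimate of the spread. The part of endothelial and red blood cells, whose markers were higher at E15, was not tested.

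Between DIV3 and DIV5, 6 of the 40 genes rose with SC siRNA and BDNF, a share near that of all genes, and in the other 3 groups none of the 40 passed with no block on culture. With SC siRNA alone, 0 of 40 passed (limma, 0 at an unadjusted p under 0.05; 9.47% of all genes), with a median difference of 0.04. With PXN siRNA, 0 passed (5 at an unadjusted p under 0.05 by limma; 5.57% of all genes), with a median of -0.15. With PXN siRNA and BDNF, 0 passed (2 at an unadjusted p under 0.05 by limma; 13% of all genes), with a median of 0.27. With SC siRNA and BDNF, 6 genes rose and none fell (limma; 17.6% of all genes passed in either direction and 11.9% rose), with a median of 0.62 beside 0.10 for all genes tested. Whether these differences differ between the groups was not tested.

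The 6 were Mcm2, Mcm7, Cdc45, E2f1, Plk1, and Bub1b. E2f1 was at 16.2, 18.1, and 13.8 TPM at DIV3 and 21.8, 24.7, 30.6, and 36.2 TPM at DIV5 in SC cultures with BDNF, without overlap, a rise of 0.77 ± 0.26 (SE; limma, adjusted p = 0.0347). Bub1b, a kinase-like protein of the spindle checkpoint, was at 6.14, 6.13, and 6.58 TPM and 8.71, 9.36, 13.3, and 15.1 TPM, also without overlap, a rise of 0.76 ± 0.22 (SE; limma, adjusted p = 0.0131). The smaller rises included Plk1, the polo kinase, by 0.66 ± 0.22 (limma, adjusted p = 0.0342), and Mcm2, whose values overlapped (28.2, 26.1, and 34.7 TPM and 33.7, 43.9, 47.7, and 68.1 TPM), by 0.65 ± 0.20 (limma, adjusted p = 0.0237). Mki67 was at 117, 120.3, and 107 TPM and 97.7, 160.5, 192, and 230.5 TPM in the same libraries and did not pass (difference 0.50 ± 0.84, limma, adjusted p = 0.73). In all 6 genes and Mki67 the highest DIV5 library was culture 4. Of 94 other cell cycle genes, 16 rose and none fell, led by Mybl1, a MuvB partner, from 4.98 ± 0.916 TPM (SD, n = 3) to 14.8 ± 5.09 TPM (SD, n = 4), by 1.36 ± 0.28 (limma, adjusted p = 7.41e-04), and Ccnd2, the G1 cyclin D2, from 164 ± 32.6 TPM (SD, n = 3) to 402 ± 127 TPM (SD, n = 4), by 1.26 ± 0.38 (limma, adjusted p = 0.0178). The count of 6 became 0 without culture 4 at DIV5, 1 and 3 without culture 1 or 3 at DIV3, 2 after scaling by median ratio size factors, and 17 without the 4 DIV10 libraries.

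In PXN siRNA the numbers of the cultures paired the libraries. When culture was blocked, 3 genes fell from DIV3 to DIV5 where none had passed, and the share of all genes that passed with the block is not given. These were the helicase subunits Mcm2, Mcm3, and Mcm4, by 0.51 ± 0.13, 0.56 ± 0.17, and 0.43 ± 0.12 on the log2(TPM + 1) scale (SE; limma, adjusted p = 0.00731, 0.0243, and 0.0113). Mcm2 was at 37.5, 33.4, 34.5, 34.3, and 39.1 TPM at DIV3 in PXN cultures 1, 2, 3, 10, and 11. At DIV5 it was at 18.9 (lowest), 25.7 (median), and 37.9 TPM (highest of 6), where only culture 3 lay above the lowest DIV3 library. Without PXN culture 3 at DIV5, 3 genes also passed with no block. Of 94 other cell cycle genes, Rfc3, of the clamp loader, fell by 0.53 ± 0.14 (limma, adjusted p = 0.0228) and Cdc25a, the G1/S phosphatase, by 0.43 ± 0.13 (limma, adjusted p = 0.0433), with no block. With SC siRNA alone, Rbl2, a pocket protein, and Mybl1 rose by 0.58 ± 0.18 (limma, adjusted p = 0.0353) and 1.11 ± 0.28 (limma, adjusted p = 0.00749). With PXN siRNA and BDNF, Cdk6 and Cit rose and Tfdp1 fell.

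From DIV5 to DIV10, most of the 40 genes fell in 3 of 4 groups. These comparisons share their DIV5 libraries with those from DIV3 to DIV5. With SC siRNA alone, 34 of 40 fell and none rose (limma), where 24.9% of all genes passed in either direction, and the median difference was -1.20 beside -0.16 for all genes tested. Top2a, the topoisomerase that untangles chromosomes, was at 47, 34.9, 84.2, and 92.8 TPM in SC cultures 1 to 4 at DIV5 and 20.4, 1.93, and 32.5 TPM in cultures 1, 3, and 6 at DIV10, without overlap. Its difference was -2.25 ± 0.70 (SE; limma, adjusted p = 0.0163), the largest of the 34. Rrm2, of ribonucleotide reductase, was at 81.3, 77.1, 176, and 189 TPM and 29.1, 15.5, and 50.8 TPM, a difference of -2.04 ± 0.38 (SE; limma, adjusted p = 2.14e-04). Mcm2 was at 28.9, 33.9, 52.1, and 52.8 TPM and 13.3, 18.7, and 20.1 TPM, with -1.20 ± 0.20 (SE; limma, adjusted p = 7.08e-05), and Pcna at 155, 149, 231, and 296 TPM and 105, 101, and 146 TPM, with -0.78 ± 0.19 (SE; limma, adjusted p = 0.00317). For these 4 genes all DIV10 libraries lay below all DIV5 libraries, in Mcm2 and Pcna with culture 3 inside or beside the range of the others and in Top2a with culture 3 far below. Ccnb1, cyclin B1, was at 31.1, 20.3, 48.5, and 52.5 TPM and 15.1, 1.64, and 18.9 TPM, with -1.96 ± 0.64 (SE; limma, adjusted p = 0.0221), and its partner Cdk1 at 6.13, 4.71, 12.2, and 12.7 TPM and 4.88, 1.24, and 5.6 TPM, with -1.06 ± 0.33 (SE; limma, adjusted p = 0.0178).

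The 6 SC genes that did not pass were Gins2, E2f1, Ccne1, Ccnb2, Birc5, and Mki67. Mki67 was at 96.9, 80.2, 179.9, and 168 TPM at DIV5 and 59.5, 3.34, and 74.8 TPM at DIV10 (difference -2.20 ± 0.84, limma, adjusted p = 0.0511). E2f1, whose libraries overlapped, was at 23.2, 15.6, 36.6, and 24.5 TPM and 20.4, 17.1, and 29 TPM (difference -0.14 ± 0.26, limma, adjusted p = 0.752). The smallest falls that passed were those of Ccne2, cyclin E2, by 0.68 ± 0.26 (limma, adjusted p = 0.04996), and Cdc45, by 0.71 ± 0.21 (limma, adjusted p = 0.0131). Scaling by median ratio size factors moved the median of all genes tested from -0.16 to 0.02 here, with 25 genes lower, and likewise left 31 lower with BDNF and 29 lower and 1 higher with PXN siRNA. By role, all 7 spindle genes, all 3 genes of the fork and nucleotides, and 8 of 9 licensing genes fell, and 3 of 4 of chromosome structure. The count of 34 was 10 without SC culture 3 at DIV10, 21 without SC culture 4 at DIV5, 32 without the 4 libraries, and 0 when only these 7 libraries were fitted. Without culture 3 Top2a differed by -1.19 (limma, adjusted p = 0.23).

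With SC siRNA and BDNF, 35 genes fell from DIV5 to DIV10 and none rose (limma; 25% of all genes), with a median of -1.48. Rrm2 was at 130.1, 165, 236, and 273 TPM at DIV5 and 44.8, 42.6, and 24.5 TPM in cultures 1, 2, and 3 at DIV10, a difference of -2.39 ± 0.38 (SE; limma, adjusted p = 3.28e-05). Top2a was at 60.3, 71.2, 125, and 119.5 TPM and 30.5, 31.7, and 4.98 TPM, a difference of -2.30 ± 0.70 (SE; limma, adjusted p = 0.0138). In both genes the DIV10 libraries lay below all DIV5 libraries, and culture 3 was the lowest. Cdc45 and Ccne2 again had the smallest falls, by 1.01 ± 0.21 (limma, adjusted p = 7.01e-04) and 0.86 ± 0.26 (limma, adjusted p = 0.0135). The 5 that did not pass were Gins2, E2f1, Ccne1, Ccnb2, and Mki67. The count was 20 without culture 3 at DIV10, 36 without the 4 libraries, and 17 when only these 7 libraries were fitted, and without culture 3 Top2a differed by -1.50 (limma, adjusted p = 0.117).

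With PXN siRNA, 33 genes fell from DIV5 to DIV10 and none rose (limma), while 47.2% of all genes passed in either direction, and the median difference was -1.12. Mki67 was at 76.9 (lowest), 109 (median), and 164 TPM (highest of 6) at DIV5 and 1.28, 2.1, 103, and 70.3 TPM in cultures 1, 2, 10, and 11 at DIV10, a difference of -2.85 ± 0.71 (SE; limma, adjusted p = 0.00127). Top2a was at 39.1 (lowest), 55.5 (median), and 92.6 TPM (highest of 6) and 1.25, 1.3, 43.9, and 28.5 TPM, a difference of -2.66 ± 0.59 (SE; limma, adjusted p = 3.42e-04). In both, cultures 1 and 2 were at a few TPM or less at DIV10 while cultures 10 and 11 were within or near the DIV5 range. The smallest falls that passed were those of Cdc45, by 0.47 ± 0.18 (limma, adjusted p = 0.0301), and Bub1b, by 0.53 ± 0.18 (limma, adjusted p = 0.0164). The 7 that did not pass were Mcm2, Mcm3, Mcm4, Mcm7, Gins2, Pcna, and Ccne2, all of S phase or its onset. Without the 4 libraries, which here are cultures 1 and 2, 1 gene rose and 3 fell, and Mki67 differed by -0.34. Those 4 were picked by their low Mki67, so this fit cannot test the fall of Mki67 or of genes that move with it. Cultures 1 and 2, culture 10, and culture 11 lie in separate library number series, and 32 genes fell and 1 rose with the series as a term.

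With PXN siRNA and BDNF, whose DIV10 libraries were cultures 10 and 11 only, 1 gene fell (limma, 4 at an unadjusted p under 0.05; 13.3% of all genes), and the median was -0.49. It was Plk1, at 24.2, 34.9, 32.9, 22.1, and 18.6 TPM at DIV5 and 15.8 and 12.8 TPM at DIV10, without overlap, a difference of -0.82 ± 0.24 (SE; limma, adjusted p = 0.0204). It did not pass without either DIV10 library, and 4 genes fell when the 4 libraries of the other groups were left out of the fit. Within the same culture, the sum of the 40 genes at DIV10 over DIV5 was 1101 over 1212 TPM in culture 10 and 922 over 1122 TPM in culture 11.

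**Figure D3:**
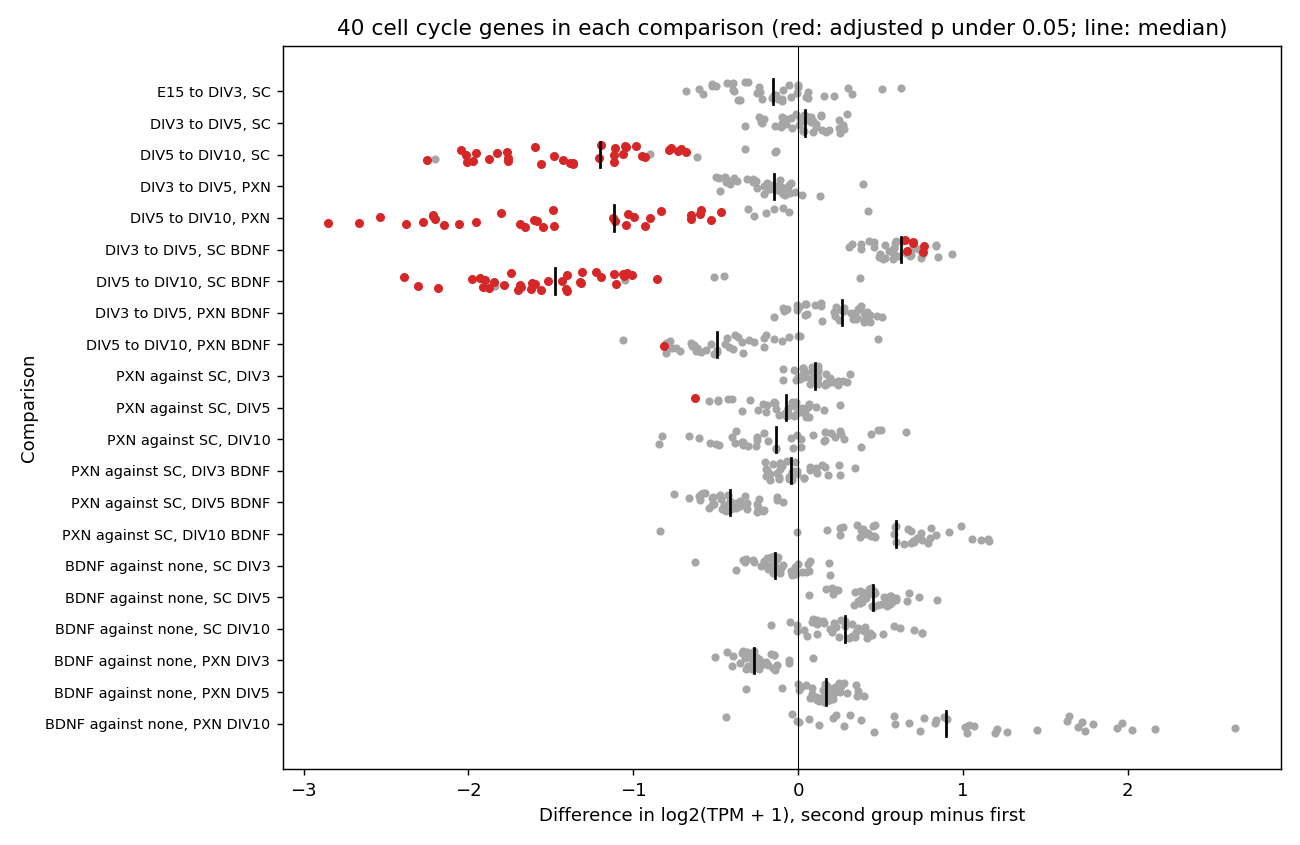
Difference in log2(TPM + 1) of each of the 40 genes (points; horizontal axis) in 21 comparisons (vertical axis), second group minus the other; red points passed (limma, adjusted p under 0.05) and black lines are medians. Of the 40 points, 34, 33, and 35 are red in the DIV5 to DIV10 comparisons of SC, PXN, and SC BDNF, and at most 6 in any other.

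Most other cell cycle genes also fell over the same interval, except with PXN siRNA and BDNF. Of 94 tested, 59 fell and 2 rose with SC siRNA, 77 fell and 2 rose with SC siRNA and BDNF, 58 fell and 12 rose with PXN siRNA, and 3 fell and 2 rose with PXN siRNA and BDNF. Of all genes tested, 19.2%, 18.3%, 31%, and 6.13% fell in these groups, in that order. The shares of all genes that rose were 5.75%, 6.71%, 16.3%, and 7.22%. With SC siRNA the largest falls were those of Uhrf1, which maintains DNA methylation at the fork, from 34.9 ± 17.7 TPM (SD, n = 4) to 9.54 ± 6.75 TPM (SD, n = 3), and Cdca3, from 38.5 ± 10.2 TPM (SD, n = 4) to 16 ± 12.3 TPM (SD, n = 3). The 2 genes that rose in both SC groups were Cit, a kinase of cytokinesis that was at 8.54, 4.75, 5.24, and 4.33 TPM and then 17.9, 14.8, and 7.89 TPM with SC siRNA, and Pttg1, securin, at 5.62, 7.77, 7.56, and 7.81 TPM and then 13.4, 33.1, and 9.94 TPM. Pttg1 also rose with PXN siRNA, by 1.86 ± 0.28 (limma, adjusted p = 1.52e-06). Among the G1 genes, Ccnd2 fell with SC siRNA (difference -1.40 ± 0.38, limma, adjusted p = 0.00634) and with PXN siRNA (difference -1.37 ± 0.32, limma, adjusted p = 6.31e-04). Cyclin D1, Ccnd1, was split among the DIV10 libraries. It was at 40.9 to 61.4 TPM at DIV5 and 145, 14.9, and 185 TPM at DIV10 with SC siRNA, where culture 3 was the low library. Its difference with PXN siRNA was -0.01 ± 0.61 (limma, adjusted p = 0.994), which became 2.07 without the 4 libraries. With SC siRNA its difference became 1.69 without them. The 4 were the DIV10 libraries with low Ccnd1, so leaving them out does not test a rise of Ccnd1. With PXN siRNA and BDNF, Ccnd1 rose from 38.7 ± 8.76 TPM (SD, n = 5) to 244 ± 47.6 TPM (SD, n = 2), by 2.64 ± 0.79 (limma, adjusted p = 0.0217).

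The 12 libraries at DIV10 fell into 4 with few and 8 with many transcripts of the mitotic genes. The 4 libraries were picked by their Mki67 after the data were seen, so the following values are descriptions and were not tested. In 29 of the 40 genes (72.5%) all 4 lay below all 8 others, in 11 the values overlapped, and in none did the 4 lie above. Mki67 is counted among the 29 and the genes of chromosome structure, where the choice of libraries set its place. Genes that move with Mki67 tend to follow it, so the share of 72.5% is not a test against that of all genes. Over all 14250 genes, all 4 lay below in 18.1% and above in 16.2%. All 7 spindle genes, all 4 of chromosome structure, both partners of the anaphase-promoting complex, and both transcription factors were among the 29, as were 4 of 6 cyclins with Cdk1, 5 of 7 mitotic kinases with checkpoint and passenger genes, 2 of 3 genes of the fork and nucleotides, and 3 of 9 licensing genes.

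Ccnb1 was at 1.64 TPM in SC culture 3, 3.99 TPM in SC with BDNF culture 3, and 0.562 and 0.982 TPM in PXN cultures 1 and 2, against 15.1 to 28.1 TPM in the other 8. Bub1, a checkpoint kinase, ran from 0.0961 to 0.684 TPM in the 4 and from 2.27 to 4.54 TPM in the 8. Foxm1, the factor of G2 genes, ran from 2.16 to 5.65 and 19.2 to 33 TPM in that order. E2f1 was at 17.1, 16, 7.3, and 6.4 TPM in the same 4 libraries, the 2 PXN libraries being the lower, against 19 to 29 TPM. Cdk1 ran from 1.24 to 3.14 TPM in the 4 and from 4.88 to 8.38 TPM in the 8.

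The helicase subunits, which act as 1 complex, differed in this respect. Mcm5 ran from 1.19 to 3.28 TPM in the 4 libraries and from 12.2 to 21.5 TPM in the other 8, a clear gap. Mcm2 ran from 18.7 to 30.3 and 13.3 to 24.2 TPM, and its highest DIV10 library was PXN culture 1, also among the 4. Mcm7 was at 232 and 199.9 TPM in PXN cultures 1 and 2 and 104 and 97.5 TPM in the SC libraries of culture 3, against 67.9 to 103 TPM in the other 8, so that PXN culture 1 held the highest Mcm7 of all 48 libraries. Pcna overlapped, at 101 to 158 and 105 to 178 TPM, while Cdc6, the loader of the helicase, did not, at 0.420 to 0.768 and 2.1 to 4.29 TPM. Of the mitotic genes, Plk1 (7.39 to 12.7 and 10.1 to 15.8 TPM) and Bub1b (3.12 to 4.42 and 3.41 to 6.41 TPM) overlapped. Of the printed promoters, those of Mcm5 and Mcm6 share the overlapping E2F letters, and Mcm5 was among the 29 whereas Mcm6 (7.7 to 14.2 and 11.6 to 26 TPM) was not. A CHR was held by 14 of 23 of the 29 genes with a promoter entry and by 5 of 9 of the overlapping genes.

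**Figure D4:**
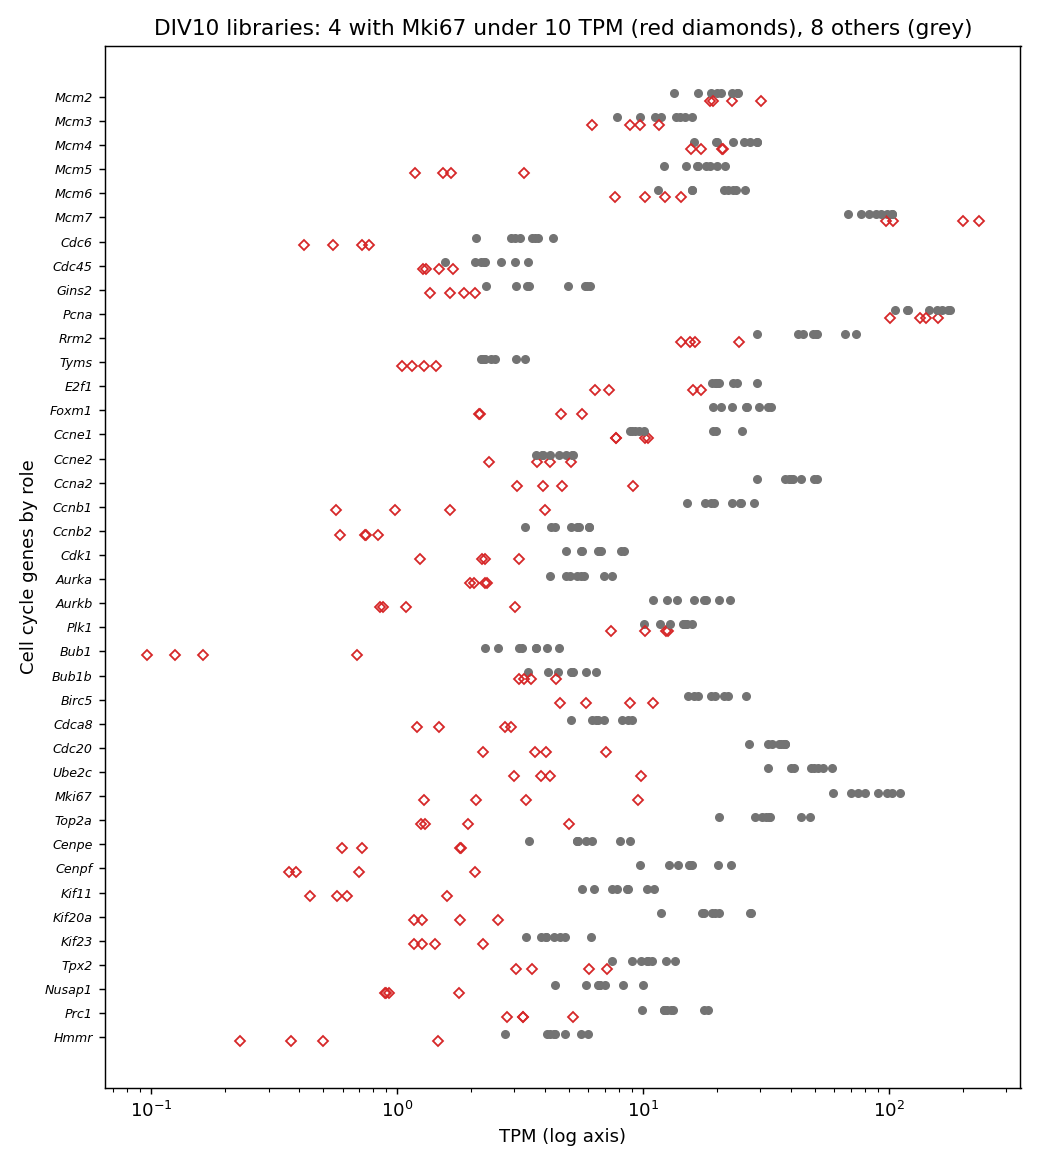
TPM of each of the 40 genes (vertical axis) in the 12 DIV10 libraries (horizontal log axis); red diamonds are the 4 libraries with Mki67 under 10 TPM and grey circles the other 8. The diamonds lie left of all circles in 29 genes, of which Mki67 is set by the choice of libraries, and to the right of most circles in Mcm7.

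Of 7 inhibitors of cyclin-dependent kinases, 3 were higher and 1 was lower in all 4 libraries than in the other 8. Of all 14250 genes, 16.2% were higher and 18.1% lower in this way. Cdkn1a, which encodes p21, was at 503, 593, 969, and 694 TPM in SC culture 3, SC with BDNF culture 3, and PXN cultures 1 and 2, against 23.4 to 49.8 TPM in the other 8 and at most 168 TPM in the 34 libraries of DIV3 and DIV5. Cdkn1b, p27, ran from 365 to 434 and 146 to 309 TPM, and Cdkn1c, p57, from 37.5 to 73.6 and 7.78 to 32.3 TPM, also without overlap. Ccnd1 ran from 6.92 to 19.6 TPM in the 4 and 145 to 278 TPM in the 8. Over DIV5 to DIV10 with PXN siRNA, Cdkn1a rose by 2.35 ± 0.78 (limma, adjusted p = 0.0122) and Cdkn1c fell by 1.96 ± 0.47 (limma, adjusted p = 9.08e-04). Without the 4 libraries the difference of Cdkn1a was 0.32. Those were the libraries with high Cdkn1a, so leaving them out does not test its rise.

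**Figure D5:**
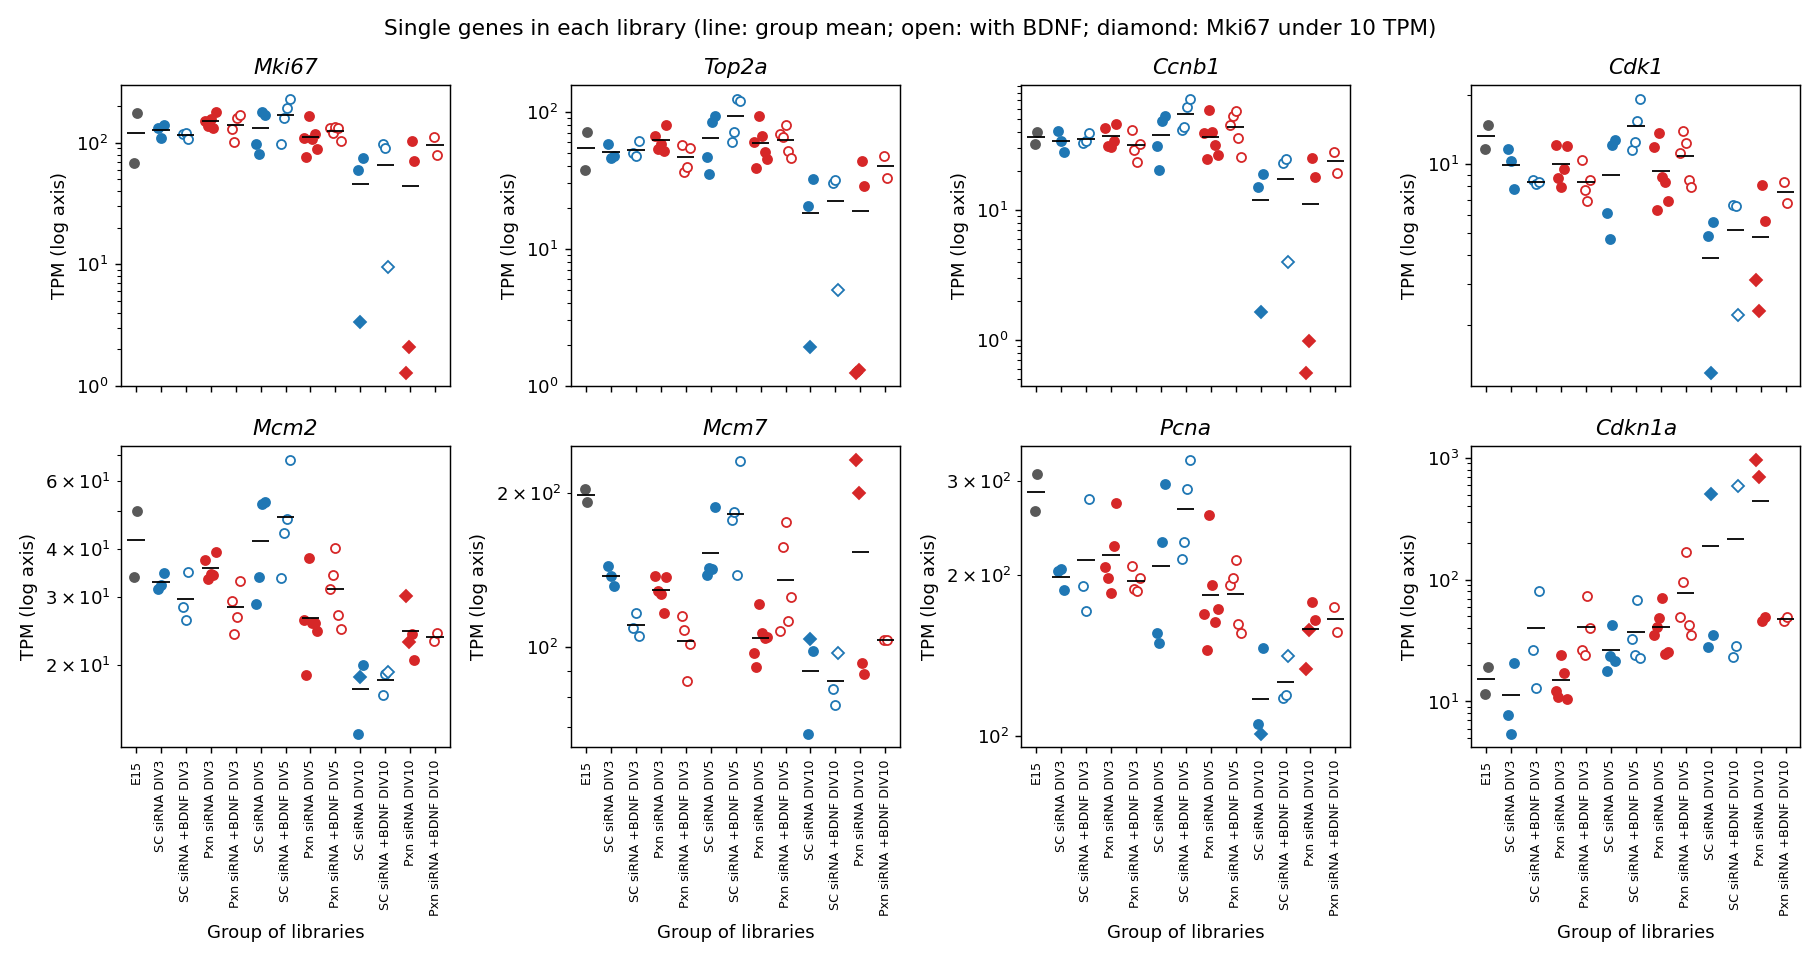
TPM (log axes, a separate range in each panel) of 7 of the 40 genes and of Cdkn1a in each library by group; filled symbols are without BDNF, open with BDNF, lines are group means, and diamonds are the 4 DIV10 libraries with Mki67 under 10 TPM. The diamonds lie lowest in Mki67, Top2a, Ccnb1, and Cdk1, overlap the circles in Mcm2 and Pcna, and lie highest in Cdkn1a. In Pcna the diamond of SC culture 3, at 101 TPM, is the lowest point.

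Markers of glial cells moved with this split. In the 4 libraries, 8 astrocyte markers summed to 866 to 1681 TPM, against 3938 to 8094 TPM in the other 8. For 6 oligodendrocyte precursor markers the sums were 279 to 2190.5 and 3393 to 8293 TPM. For 7 microglial markers they were 171 to 259 and 438 to 1629 TPM. All 3 ranges are separate, with the 4 libraries lower. The 8 neuronal markers summed to 559 to 1675 TPM in the 4, also below the 1881 to 2509 TPM of the 8, and the 5 intermediate progenitor markers overlapped, at 175 to 433 and 114 to 298 TPM. Gene by gene, all 4 libraries lay below all 8 others in 6 of 8 astrocyte, 5 of 6 oligodendrocyte precursor, 4 of 5 oligodendrocyte, 5 of 7 microglial, 4 of 9 radial glial, 2 of 8 neuronal, and 0 of 5 intermediate progenitor markers, and above in none of these. Over all 14250 genes, all 4 lay below in 18.1% and above in 16.2%, and the count of neuronal markers was near that share. The part of these cells in the level of the cell cycle genes was not tested.

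Both siRNAs, libraries with and without BDNF, and 2 of the 4 library number series were found among the 4 libraries. Culture 3 was low with and without BDNF under SC siRNA. Culture 1 was high under SC siRNA with and without BDNF, with Mki67 at 98.4 and 59.5 TPM, and low under PXN siRNA, with Mki67 at 1.28 TPM, all in the same library number series. That culture offers the only comparison of both siRNAs with a shared number at DIV10: 33 of 40 genes were lower in the PXN library, with a median ratio of 0.314, and Mcm7 was 3.42 times as high. In cultures 10 and 11, which hold no SC library, PXN siRNA gave Mki67 of 103 and 70.3 TPM. From DIV5 to DIV10 under PXN siRNA the median ratio of the 40 genes was 0.124 and 0.223 in cultures 1 and 2 and 0.909 and 0.798 in cultures 10 and 11. Under SC siRNA it was 0.527 in culture 1 and 0.129 in culture 3.

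Paxillin siRNA against SC siRNA gave 1 call among the 40 genes in 6 comparisons. At DIV3, 0 of 40 passed without BDNF and 0 with BDNF (limma, 0 and 0 at an unadjusted p under 0.05), as did 0% of all genes in either comparison. At DIV5, 1 fell (limma, 3 at an unadjusted p under 0.05; 6.18% of all genes), and with BDNF 0 passed (9 at an unadjusted p under 0.05 by limma; 0.596% of all genes). At DIV10, 0 passed without BDNF (limma, 4 at an unadjusted p under 0.05; 2.58% of all genes) and 0 with BDNF (2 at an unadjusted p under 0.05 by limma; 0.0211% of all genes). The medians were 0.10, -0.07, and -0.14 without BDNF and -0.04, -0.41, and 0.59 with BDNF, in the order of days.

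The gene that fell at DIV5 was Mcm2. It was at 28.9, 33.9, 52.1, and 52.8 TPM in SC cultures 1 to 4, and at 18.9 (lowest), 25.7 (median), and 37.9 TPM (highest of 6) with PXN siRNA, a difference of -0.62 ± 0.17 (SE; limma, adjusted p = 0.0262). It was lower with PXN siRNA in each of the 4 shared cultures, at 26.2, 18.9, 37.9, and 25.7 TPM in cultures 1 to 4. Culture numbers paired these libraries too, and with culture blocked Mcm2 fell by 0.56 ± 0.14 and Mcm4 by 0.47 ± 0.13 (SE; limma, adjusted p = 0.00558 and 0.00774), so 2 genes fell. The SC libraries at DIV5 all came from 1 library number series, which 2 of the 6 PXN libraries (cultures 3 and 4) shared. With the series as a term, with median ratio size factors (where the median of the 40 genes turned from -0.07 to 0.02), with only the compared groups, or without SC culture 2, SC culture 4, or PXN culture 2, 0 genes passed. With BDNF at DIV5, Mcm2 was at 33.7, 43.9, 47.7, and 68.1 TPM and 31.5, 34.2, 40.1, 26.9, and 24.8 TPM (difference -0.58 ± 0.18, limma, adjusted p = 0.094).

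The sum of the 40 genes with PXN over SC siRNA in the shared cultures at DIV5 was 1.15, 0.962, 1.01, and 0.678 in cultures 1 to 4, and 1.02, 0.952, and 0.667 in cultures 1, 2, and 4 with BDNF. Culture 4 was thus the lowest ratio in both, and the other 5 pairs lay near 1. At DIV10, E2f1 was at 20.4, 17.1, and 29 TPM with SC and 7.3, 6.4, 19.7, and 19.9 TPM with PXN siRNA (difference -0.83 ± 0.26, limma, adjusted p = 0.0617), the smallest p of the 40 genes. Without cultures 10 and 11, which have no SC library, the 2 PXN libraries left at DIV10 were both among the 4 with low Mki67, and 1 gene rose and 20 fell. The share of all genes that passed in that fit is not given, so the count does not show whether the 40 genes stand out. Without all 4 low libraries, 0 genes passed at DIV10. With the library number series as a term 4 genes rose and 1 fell at DIV10, and with culture blocked 4 rose (Mcm2, Mcm3, Mcm7, and Pcna). Of these, Mcm2 and Mcm7 were not among the 20 that fell without cultures 10 and 11. In PXN cultures 1 and 2 Mcm2 was at 30.3 and 23 TPM, against 13.3 to 20.1 TPM with SC siRNA. Mcm7 was at 232 and 199.9 TPM there, against 67.9 to 104 TPM. The count of calls at DIV10 was 2 without PXN culture 10, PXN culture 11, or SC culture 3. Of 94 other cell cycle genes, 3 fell at DIV5, among them E2f6, a repressor of the E2F family (difference -0.50 ± 0.11, limma, adjusted p = 0.00441), and Cdk2, the kinase of cyclin E (difference -0.57 ± 0.17, limma, adjusted p = 0.0376), and none passed in the other 5 comparisons (limma, 0 to 28 at an unadjusted p under 0.05).

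BDNF against none gave no call in any of 6 comparisons. At DIV3, 0 of 40 genes passed with SC and 0 with PXN siRNA (limma, 1 and 2 at an unadjusted p under 0.05), where 1.21% and 2.14% of all genes passed. At DIV5, 0 and 0 passed (6 and 1 at an unadjusted p under 0.05 by limma; 0.0491% and 0.014% of all genes). At DIV10, 0 and 0 passed (0 and 24 at an unadjusted p under 0.05 by limma; 0% and 0.014% of all genes). The medians in the order of days were -0.14, 0.45, and 0.28 with SC and -0.27, 0.17, and 0.90 with PXN siRNA. Without the 4 low libraries, 0 passed at DIV10 with either siRNA. Among the other cell cycle genes, none of 94 passed in any of the 6 (limma, 0 to 42 at an unadjusted p under 0.05).

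Within cultures of the same number, the sum of the 40 genes was lower with BDNF in 6 of 7 pairs at DIV3 and higher in 9 of 9 at DIV5 and 4 of 4 at DIV10. At DIV3 the ratio with over without BDNF was 0.812, 0.895, and 1.05 in SC cultures 1 to 3 and 0.864, 0.809, 0.829, and 0.771 in PXN cultures 1, 2, 10, and 11. At DIV5 it was 1.28, 1.75, 1.17, and 1.35 in SC cultures 1 to 4 and 1.13, 1.73, 1.33, 1.05, and 1.03 in PXN cultures 1, 2, 4, 10, and 11. The ratios in cultures 10 and 11 lay close to 1 at DIV5. At DIV10 it was 1.35 and 1.25 in SC cultures 1 and 3 and 1.04 and 1.08 in PXN cultures 10 and 11. The pairs of SC cultures 1 and 2 at DIV5 and of PXN culture 11 at DIV3 crossed library number series, and these sums were not tested. The gene with the smallest p at DIV5 with SC siRNA was Birc5, survivin, at 15.3, 13.2, 30.1, and 28.7 TPM without and 29, 32.3, 44.8, and 47 TPM with BDNF (difference 0.84 ± 0.32, limma, adjusted p = 0.388). At DIV3 E2f1 was at 26.1, 24.1, and 25.2 TPM without and 16.2, 18.1, and 13.8 TPM with BDNF, without overlap (difference -0.63 ± 0.28, limma, adjusted p = 0.395).

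At DIV10 under PXN siRNA the comparison set cultures 1, 2, 10, and 11 without BDNF against cultures 10 and 11 with BDNF. Mki67 was at 1.28, 2.1, 103, and 70.3 TPM without and 111 and 79.9 TPM with BDNF, a difference of 2.65 ± 0.96 (SE; limma, adjusted p = 0.246). Without PXN culture 10 or 11 of the group without BDNF, 22 and 18 genes passed, and in the shared cultures 10 and 11 the ratios were those given above, near 1.

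The interaction of siRNA and BDNF was tested at each day, and 0 of 40 genes passed at DIV3, DIV5, or DIV10 (limma, 0, 0, and 1 at an unadjusted p under 0.05), as did 0% of all genes at each day. The change from DIV5 to DIV10 differed between PXN and SC siRNA in 2 of the 40 genes (limma), a share no higher than the 5.76% of all genes. They were Mcm2 and Mcm7. Mcm2 fell with SC siRNA, and with PXN siRNA it was at 30.3, 23, 24.1, and 20.7 TPM in cultures 1, 2, 10, and 11 at DIV10 and did not pass. The changes of Mcm2 differed by 1.11 ± 0.27 (SE; limma, adjusted p = 0.0191). Mcm7 was at 139, 143, 142, and 188 TPM at DIV5 and 67.9, 104, and 98.5 TPM at DIV10 with SC siRNA, a fall of 0.77 ± 0.21 (limma, adjusted p = 0.00808). With PXN siRNA Mcm7 was at 91.4 (lowest), 104 (median), and 122 TPM (highest of 6) and 232, 199.9, 93, and 88.9 TPM (difference 0.43 ± 0.18, limma, adjusted p = 0.0505), and its changes differed by 1.19 ± 0.28 (SE; limma, adjusted p = 0.0169). Without the 4 libraries, without SC culture 1 at DIV10, without SC culture 4 at DIV5, or with only these groups fitted, 0 genes passed, and 14 did without cultures 10 and 11. Of 94 other cell cycle genes, 6 differed in the same direction, among them Cdk2, by 0.87, and Rbl2, by 0.76.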

How the data were processed

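Libraries labelled as primary cortical neurons of wild-type mice were prepared with the SureSelect XT HS2 kit and sequenced on a NovaSeq. Per the study's methods and the submitters' processing notes, the authors aligned reads with STAR 2.7.10 to GRCm38 and quantified genes with RSEM 1.3.3. The deposited table holds TPM values, which sum to the same total in every library, so depth is unknown and no counting interval can be given. A rise of other transcripts lowers the TPM of a gene. The labels put 48 cortex libraries in 13 groups, and no column of other samples was found. A second deposited table, of transcripts of the hippocampus, was not used here.

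Values were taken as log2(TPM + 1), so that differences of low genes are understated. The filter (mean TPM of 1 or more over 48 libraries) left 14250 genes, which were fitted in 1 model of all 13 groups with limma 3.58.1 (trend in the prior variance), with Benjamini-Hochberg adjustment over all genes tested and a threshold of 0.05, two-sided. The method was tested on simulated data. Python 3.11.15 was used for the rest. The 40 genes and all lists were chosen with earlier results of these data known. Of 97 other cell cycle genes 94 were tested. Any of the 40 genes could be named, with values by library for Mki67, Top2a, Mcm2, Pcna, Ccnb1, Cdk1, E2f1, and the 2 genes with the largest rise and fall that passed in a comparison. The same 2 and 2 were named of the other cell cycle genes, besides Cdkn1a, Cdkn1c, Ccnd1, Ccnd2, the 10 genes most like the mean of the 40, and Pxn. Other names, among them Cdkn1b, Mcm10, Cdc25a, and the targets of p53, were chosen after their values were seen. Alternatives were a pseudocount of 0.1, no filter, median ratio size factors, only the groups compared, the culture number as a block, the library number series as a term, each library left out, and no cultures 10 and 11. Leaving out the 4 DIV10 libraries was added after seeing the data. They were picked by Mki67, so counts in that setting describe the remaining libraries and do not test a fall of the mitotic genes. Nor does that setting test Ccnd1 or Cdkn1a, whose levels split the same libraries. Same-numbered libraries deviated together (every pair's r over 0.1, with 3 or more pairs) in 10 of 19 comparisons, with r from 0.19 to 0.81, and were then taken as paired. This rests on the data, since the labels give only the number. The pairing entered only the fits with culture as a block, and all other differences, SE, and p-values are unpaired.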

Additional observations from a re-analysis of the deposited data

Results flagged for a closer look

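In 2 of the 40 genes, Mcm2 and Mcm7, the change from DIV5 to DIV10 differed between PXN and SC siRNA by the test of the interaction (limma), a share no higher than the 5.76% of all genes. For Mcm2 the changes differed by 1.11 ± 0.27 on the log2(TPM + 1) scale (SE; adjusted p = 0.0191), with -1.20 in SC and -0.09 in PXN siRNA. For Mcm7 they differed by 1.19 ± 0.28 (SE; limma, adjusted p = 0.0169), with -0.77 in SC and 0.43 in PXN siRNA. Of the 10 PXN libraries, the 2 highest for Mcm7 were cultures 1 and 2 at DIV10, which are among the 4 with low Mki67. Without those 4 the differences were 1.05 for Mcm2 and 0.69 for Mcm7 (limma, adjusted p = 0.0529 and 0.0707). In 84 tests of a single library standing apart from its group, over the summed level, 7 of the 40 genes, and Cdkn1a, Cdkn1c, Ccnd1, and Ccnd2 in each group of 4 or more libraries, 0 passed, where chance gives about 1 in 20. The SC groups at DIV10, with 3 libraries each, were too small for this test. In PXN siRNA at DIV10, cultures 1 and 2 were low together, which a test of a single library cannot flag. The result of 0 therefore says nothing of the 4 libraries with low Mki67.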

How the results depend on the processing

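Counts of the 40 genes called in 25 comparisons stayed within 1.5 times with a pseudocount of 0.1 or no filter. With median ratio size factors, 2 were called from DIV3 to DIV5 in SC BDNF and 0 for PXN against SC at DIV5. With only the groups compared, 0 were called from DIV5 to DIV10 in SC, 17 in SC BDNF, 1 from DIV3 to DIV5 in PXN, 0 for PXN against SC at DIV5, and 0 for siRNA by day. With the replicate block (culture number), 3 were called from DIV3 to DIV5 in PXN, 2 for PXN against SC at DIV5, 4 at DIV10, 6 at DIV5 with BDNF, and 5 for siRNA by day, and the block moved no other count past 1.5 times, including those that were paired; the libraries of the last 3 were not taken as paired. With the library number series, 1 was called from E15 to DIV3 and 1 from DIV3 to DIV5 in PXN, and for PXN against SC 0 at DIV5, 5 at DIV10, and 2 at DIV5 with BDNF, and 5 for siRNA by day. Without cultures 10 and 11, 21 were called for PXN against SC at DIV10 and 14 for siRNA by day. Without the 4 DIV10 libraries, 1 was called from E15 to DIV3, from DIV3 to DIV5 1 in PXN, 17 in SC BDNF, and 1 in PXN BDNF, from DIV5 to DIV10 4 in PXN and 4 in PXN BDNF, for PXN against SC 2 at DIV5 and 4 at DIV5 with BDNF, and 0 for siRNA by day. In that setting Ccnd1 from DIV5 to DIV10 in PXN went from -0.01 to 2.07, where the libraries left out were those with low Ccnd1. Leaving out 1 library gave 10 to 35 calls from DIV5 to DIV10 in SC, 20 to 36 in SC BDNF, 25 to 34 in PXN, and 0 to 1 in PXN BDNF, 0 to 3 from DIV3 to DIV5 in PXN and 0 to 6 in SC BDNF, 0 to 1 for PXN against SC at DIV5 and 0 to 2 at DIV10, 0 to 22 for BDNF in PXN at DIV10, and 0 to 3 for siRNA by day. Where this left a group with 1 library, that library was assumed to vary like the other groups. The causes were not tested. The shares of all genes that passed in these alternative fits are not given, so the counts do not show whether the 40 genes stand out in them. The block could not be fitted for E15, nor the 2 PXN BDNF comparisons at DIV10 without cultures 10 and 11. Since TPM carry no depth, low genes such as Cdc45 and Bub1 cannot be weighed by their counts.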

Other observations

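Textbook targets of p53 outside the 40 genes moved with the split of the DIV10 libraries. They were looked up after Cdkn1a had been seen, so the values are descriptions and no test was made. Of 11 genes, 10 were higher in all 4 libraries with Mki67 under 10 TPM than in the other 8, as were 16.2% of all genes tested. Ccng1, cyclin G1, ran from 1054 to 1592 TPM in the 4 and from 167 to 235 TPM in the 8. Gdf15, a secreted stress cytokine, ran from 75.3 to 293 and 1.02 to 3.41 TPM, and Mdm2, the ubiquitin ligase of p53, from 109.8 to 191 and 40.5 to 52 TPM. Gdf15 also reached 95.5 TPM in PXN culture 4 with BDNF at DIV5, inside the range of the 4. Summed, the 11 genes were at 2227 TPM or more in the 4 and at most 1344 TPM at DIV5. Of 5 genes of the integrated stress response, 4 were higher in all 4 (beside the same 16.2% of all genes tested), among them Trib3 (36.4 to 226 and 1.5 to 3.65 TPM) and Ddit3, which encodes CHOP (181 to 597 and 38 to 66.9 TPM). Their level was not particular to the 4, in which the 5 genes summed to 976 to 2051 TPM. At DIV5 the sum was 1127 and 1115 TPM in PXN cultures 2 and 4, and 1296 and 1076 TPM there with BDNF. The other libraries of DIV3 and DIV5 reached at most 834 TPM. Pxn itself was at 13.4 to 19.9 TPM in the 4 libraries, of which 2 had SC siRNA, and 8.99 to 13.2 TPM in the other 8.

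Of 97 other cell cycle genes, 49 were lower and 10 higher in all 4 libraries than in the other 8, beside 18.1% and 16.2% of all genes tested. The 10 were Mcm10, Cdc25a, Pttg1, Rb1, Rbl2, E2f5, Lin37, Cdkn1a, Cdkn1b, and Cdkn1c. Mcm10, which acts with Cdc45 at origins, ran from 7.0 to 10.8 and 2.11 to 6.27 TPM, Cdc25a from 11 to 12.3 and 7.03 to 10.3 TPM, and Pttg1 from 33 to 77.4 and 9.94 to 20.5 TPM. They were singled out after their values were seen.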
